A study of Homo sapiens with 18 samples.

Results

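The 36 genes described here encode aminoacyl-tRNA synthetases and were measured among 31004 genes in HCT116 cells, a human line established from a colorectal carcinoma. Members were matched by symbol as the deposited tables spell them, and each of the 36 names was found. The 20 cytosolic enzymes and the 16 mitochondrial enzymes, whose symbols end in 2, were described as separate lists. RNA was sequenced in 18 libraries, labelled as 3 replicates of each of 6 groups. The study states 3 biological replicates for the cells given CRLM1, antisense or free plasmid. The groups combined a stable background with a second treatment. The backgrounds were an empty control vector (Ctrl), overexpression of the long noncoding RNA CRLM1 (CRLM1) and overexpression of its antisense as a control (Antisense). The study made them by lentiviral delivery and puromycin selection. Within each background the cells received either a negative control (NC) or an expression construct for hnRNPK, a nucleic acid binding protein (hnRNPK). The groups are named Ctrl_NC, CRLM1_NC, Antisense_NC, Ctrl_hnRNPK, CRLM1_hnRNPK and Antisense_hnRNPK. Whether each background came from 1 transduction, and which cells took up the hnRNPK construct, is not given in the sources used here. In such bulk RNA, a change in every cell and a larger change in some of the cells cannot be told apart.

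Aminoacyl-tRNA synthetases join each amino acid to its tRNA and so supply the ribosome with charged tRNA. Human cells keep separate nuclear genes for most cytosolic and mitochondrial enzymes, although GARS and KARS each serve both compartments from a single gene. Several cytosolic enzymes sit in a multisynthetase complex, held together by the scaffold proteins AIMP1, AIMP2 and EEF1E1. When amino acids run short or the endoplasmic reticulum is stressed, phosphorylation of eIF2 favours translation of the transcription factor ATF4, which is known to activate genes of amino acid synthesis and transport and several cytosolic synthetase genes. ATF4 pairs with C/EBP proteins on composite elements that read TGATGCAA or close variants.

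Promoters of 30 members were found in the RefSeq table of GRCh38.p14, each covering 250 bases before and 50 bases after the gene start. DARS, LARS, VARS, YARS, AARS2 and VARS2 were not analysed here. TGATGCAA, searched on both strands, was present in 6 of 16 cytosolic promoters (37.5%), in 0 of 14 mitochondrial promoters and in 252 of 27305 promoters in all (0.923%). The wider TGATGNAA, which contains every TGATGCAA match, added 1 mitochondrial promoter, that of YARS2, and was present in 3.673% of all promoters. The windows are shown because they hold the letters shared by these members, which the choice of members did not use. They are printed along the strand of the gene, and capitals mark the match, where TTGCATCA is TGATGCAA read on the other strand. A match is a run of letters and not a measured binding site.
AARS (alanine), chr16:70289675-70289704, minus strand: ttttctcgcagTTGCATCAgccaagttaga
CARS (cysteine), chr11:3057407-3057436, minus strand: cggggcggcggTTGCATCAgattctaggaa
IARS (isoleucine), chr9:92293692-92293721, minus strand: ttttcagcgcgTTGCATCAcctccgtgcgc
MARS (methionine), chr12:57488053-57488082, plus strand: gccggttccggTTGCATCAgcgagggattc
NARS (asparagine), chr18:57621804-57621833, minus strand: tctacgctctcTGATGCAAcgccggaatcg
TARS (threonine), chr5:33440956-33440985, plus strand: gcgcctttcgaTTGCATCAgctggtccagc
YARS2 (mitochondrial, tyrosine), chr12:32756076-32756105, minus strand: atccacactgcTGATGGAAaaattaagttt
Counted from the RefSeq start, the match began within 4 bases in CARS, MARS and TARS, at base -187 in AARS and at base -197 in YARS2. These distances depend on the start used, and the Gencode gene models start elsewhere. On the minus strand AARS starts there at 70289707, just before its window, and CARS at 3057613. On the plus strand MARS starts at 57475445 and TARS at 33440696. From those starts the matches of CARS, MARS and TARS lie farther inside the gene than that of AARS.

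Library totals ran from 19732681 to 27039520 counts. CPM values below are counts scaled to a common library size by TMM over the 18 libraries. Reads counted to the CRLM1 gene were at 587 to 658 CPM in the CRLM1 libraries, at 39.1 to 50.0 CPM in the Antisense libraries and at 0 counts in the Ctrl libraries. The strand used in counting is not stated, so the strand of these reads in the Antisense libraries is unknown. HNRNPK read 463, 471 and 479.7 CPM in Ctrl_NC and 617, 644 and 491 CPM in Ctrl_hnRNPK, so the third Ctrl_hnRNPK library was close to the control libraries. That library correlated at 0.984 to 0.986 with the Ctrl_NC libraries and at 0.96 to 0.965 with its own group over 15563 genes. The third CRLM1_hnRNPK library likewise correlated at 0.98 with CRLM1_NC and at 0.956 to 0.959 with its own group. Its HNRNPK level of 571 CPM was nevertheless above the 454 to 461 CPM of CRLM1_NC, and below the 671 and 713 CPM of its group. In Antisense_hnRNPK, HNRNPK read 540, 532 and 583 CPM against 424 to 434 CPM in Antisense_NC. The study left out the third Ctrl_hnRNPK and CRLM1_hnRNPK libraries because of their profiles. Comparisons with hnRNPK are therefore given with all libraries as labelled and without whichever of these 2 libraries they hold. Leaving them out used the same expression values that are then tested, so p-values without them are too small. Epithelial markers were high, with EPCAM at 252 to 450.4 CPM and KRT8 at 861 to 3706 CPM, but VIL1 stayed under 1 CPM. Of the markers of other cell types, PTPRC, PECAM1 and COL1A2 were at or near 0, VIM was at 0.982 to 3.68 CPM and COL1A1 at 11.2 to 32.8 CPM.

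In the Ctrl_NC cells the cytosolic enzymes were the more abundant RNAs. Levels between genes are compared as FPKM, which the authors divided by exon length. FPKM is not scaled by TMM, so FPKM sums of different groups are not on the scale of the CPM values. Summed over the list, cytosolic synthetases reached 444 ± 7.84 FPKM (SD, n = 3) and mitochondrial synthetases 81.3 ± 1.87 FPKM, a ratio of 5.47 ± 0.0386. QARS, the glutaminyl enzyme, was highest at 83.3 ± 1.68 FPKM, followed by VARS, the valyl enzyme, at 62.3 ± 1.45 FPKM and KARS, the lysyl enzyme, at 46.4 ± 1.54 FPKM, and these 3 ranges did not overlap. SARS and DARS, the seryl and aspartyl enzymes, came next at 30.8 ± 2.08 and 30.6 ± 0.371 FPKM, and their libraries overlapped. The lowest cytosolic enzyme was TARS, the threonyl enzyme, at 5.55 ± 0.365 FPKM, below but close to FARSB at 6.67 ± 0.501 FPKM and CARS at 6.69 ± 0.196 FPKM. Among mitochondrial enzymes IARS2 stood above the others at 17.4 ± 0.383 FPKM. CARS2 (8.74 ± 1.05 FPKM) and EARS2 (8.6 ± 0.72 FPKM) overlapped, and the lowest were MARS2 at 1.03 ± 0.127 FPKM and PARS2 at 0.127 ± 0.00577 FPKM. PARS2 rested on 8, 11 and 9 counts in these libraries.

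For 13 amino acids both a cytosolic and a mitochondrial gene were listed under matching names. In Ctrl_NC the cytosolic gene had the higher FPKM in 11 of the 13 pairs, with a median ratio of 4.16. The exceptions were IARS to IARS2 at 0.5 ± 0.0303 and CARS to CARS2 at 0.77 ± 0.0674. HARS and HARS2, neighbours that start head to head on chromosome 5 and share a small part of their exon sequence, were nearly level at 1.14 ± 0.055. VARS to VARS2 at 15.0 ± 0.465 and MARS to MARS2 at 13.9 ± 1.42 had the highest ratios and overlapped, and the count of VARS2 is uncertain because 63.0% of its exon bases are shared with another model. In Antisense_NC the median ratio of the pairs was 6.35, and in CRLM1_NC it was 3.99. The pair of WARS and WARS2 gave the median in both Ctrl_NC and CRLM1_NC. Apart from it and HARS to HARS2 (1.13 ± 0.044), each pair had a higher mean ratio in CRLM1_NC than in Ctrl_NC. The ratio of the sums was 5.95 ± 0.0815 in CRLM1_NC. AARS to AARS2 went from 9.9 ± 0.719 in Ctrl_NC to 49.7 ± 6.87 in Antisense_NC, and CARS to CARS2 from 0.77 to 6.35 ± 0.396. VARS to VARS2 stayed near its control value at 14.8 ± 0.574, and HARS to HARS2 read 1.02 ± 0.0545.

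**Figure D1:**
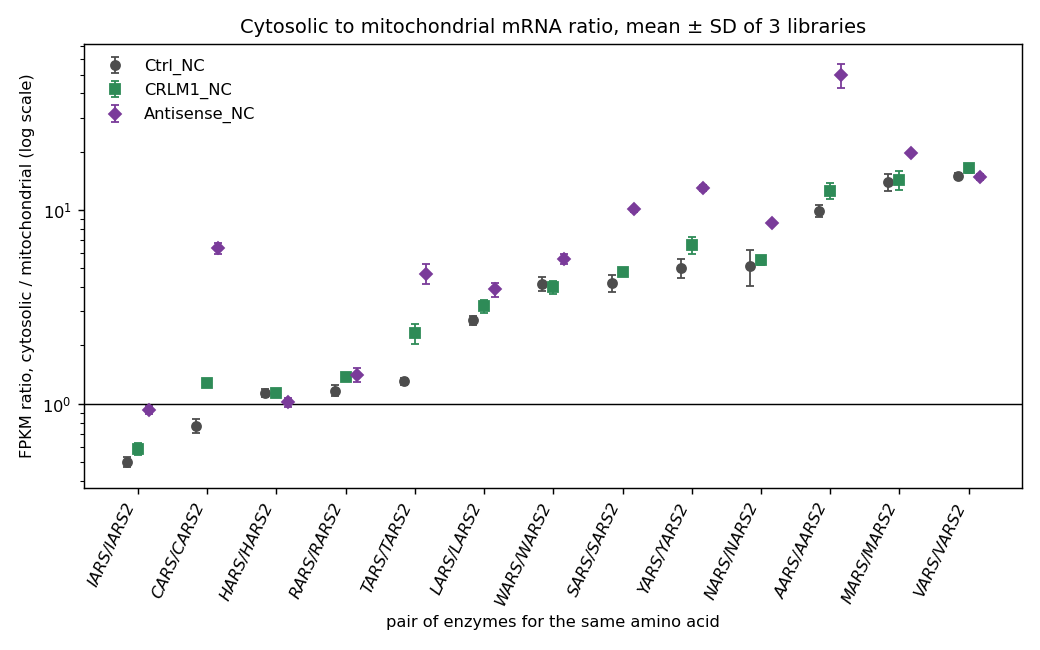
Ratio of cytosolic to mitochondrial FPKM for the 13 amino acids with a matching pair of genes, on a log axis, in Ctrl_NC, CRLM1_NC and Antisense_NC; points are means of 3 libraries and bars are SD. The AARS pair moves from 9.9 to 49.7 and the CARS pair from 0.77 to 6.35 between Ctrl_NC and Antisense_NC, while the VARS pair lies at 15.0 and 14.8.

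The Antisense_NC and Ctrl_NC groups show how the antisense background differed from the empty vector. Cytosolic synthetases were broadly higher in the antisense cells, led by AARS at 4.27-fold, CARS at 4.08-fold and TARS at 3.67-fold, while QARS and VARS, the enzymes with the highest Ctrl_NC levels, were lower. Of the 20 cytosolic genes, 16 rose and 3 fell at an adjusted p of at most 0.05, which is 80.0% and 15.0% against 34.4% and 32.2% of all genes tested. At least a 2-fold rise was found for 7 of them (35.0%), against 7.19% of all genes. Mitochondrial synthetases were divided, with 5 of 16 higher (31.2%) and 5 lower (31.2%), shares close to those of all genes. The median log2 fold change was 0.71 for the cytosolic list, -0.15 for the mitochondrial list and 0.00 for all genes. Other traits of the libraries differed between these groups. The mitochondrial genome took 6.64% to 7.17% of counts in Antisense_NC and 4.06% to 4.25% in Ctrl_NC. Of the 7 epithelial markers, 5 were tested, and CDX2 (15.4 ± 1.39 against 6.16 ± 0.936 CPM) and CDH1 were higher in Antisense_NC while KRT8 (1771 ± 76.5 against 2668 ± 113 CPM), KRT18 and EPCAM were lower. Of the 5 markers of other cell types, COL1A1 was higher (31.5 ± 2.11 against 22.9 ± 2.5 CPM), VIM was lower (1.34 ± 0.191 against 2.98 ± 0.712 CPM) and the defining markers PTPRC, PECAM1 and COL1A2 were at or near 0. Their part in the results for the synthetases was not tested. The tests of all these genes were edgeR quasi-likelihood tests, two-sided, with p-values adjusted over every gene tested by the Benjamini-Hochberg procedure.

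AARS, which charges alanine tRNA, read 107, 112 and 114 CPM in Ctrl_NC and 482, 501 and 489.9 CPM in Antisense_NC. CARS, for cysteine, read 29.6, 28.9 and 30.5 CPM against 122, 128 and 126 CPM. TARS, for threonine, read 33.8, 36.1 and 38.4 CPM against 132, 147 and 132 CPM. On GRCh38 (Gencode 44) AARS lies at chr16:70251983-70289707 on the minus strand, CARS at chr11:3000922-3057613 on the minus strand and TARS at chr5:33440696-33468091 on the plus strand. In each of these genes every antisense library lay far above every control library, with log2 differences of 2.09 (SE 0.04, edgeR adjusted p = 1.5e-33) for AARS, 2.03 (SE 0.05, adjusted p = 3.8e-28) for CARS and 1.87 (SE 0.06, adjusted p = 1.8e-26) for TARS. The other members past 2-fold were GARS for glycine (3.3-fold), SARS for serine, YARS for tyrosine and MARS for methionine. MARS shares 13.3% of its exon bases with other gene models, among them DDIT3 on the opposite strand, and the strand used in counting is not stated.

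The 3 cytosolic members that fell did so by less. QARS read 322, 331 and 334 CPM in Ctrl_NC and 239, 257 and 251 CPM in Antisense_NC, a log2 difference of -0.45 (SE 0.04, edgeR adjusted p = 7.9e-14). VARS read 392, 375 and 384 CPM against 303, 316 and 311 CPM, a log2 difference of -0.36 (SE 0.03, adjusted p = 1.0e-11). Neither gene had overlapping groups. KARS was lower by a small margin, at -0.10 (SE 0.04, adjusted p = 0.0388), its groups overlapped, and a limma fit on FPKM gave 0.13. HARS, for histidine, did not pass (0.04, adjusted p = 0.575).

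Cytosolic members inside and outside the multisynthetase complex were both mostly higher. In the whole cytosolic list 16 of 20 rose and 3 fell, against 34.4% and 32.2% of all genes. Of the 8 complex members, 6 rose and 2 fell (KARS and QARS), with a median log2 difference of 0.48. Of the 12 outside it, 10 rose and 1 fell (VARS), with a median of 1.06. The enzyme classes, which differ in the fold of their catalytic domain, gave 7 of 9 higher for class I and 8 of 10 for class II, with medians of 0.72 and 0.58. All 6 members with TGATGCAA in the promoter windows shown above rose, by 0.39 (NARS) to 2.09 (AARS), with a median of 1.53. Most of the other cytosolic members rose too, and a link to the motif was not tested. GARS, SARS and YARS also rose past 2-fold and are not among those 6, although the promoter of YARS was not analysed.

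Among mitochondrial members the largest difference was in PARS2, the prolyl enzyme, with 8, 11 and 9 counts in Ctrl_NC and 55, 73 and 64 counts in Antisense_NC. Its log2 difference was 2.70 (SE 0.32, edgeR adjusted p = 2.9e-09), and the low counts leave that value less precise than those of the cytosolic genes. CARS2 moved opposite to its cytosolic counterpart, from 22.0, 21.7 and 26.7 CPM to 11.5, 11.5 and 12.8 CPM (log2 -1.03, SE 0.10, adjusted p = 3.0e-11). MARS2 rose by 0.67 (SE 0.16, adjusted p = 2.5e-04) and WARS2 by 0.51 (SE 0.12, adjusted p = 2.5e-04). NARS2 (-0.41, SE 0.13, adjusted p = 0.0049) and IARS2 (-0.37, SE 0.05, adjusted p = 1.8e-07) were lower. The summed mitochondrial FPKM of 87.4 ± 2.53 in Antisense_NC lay close to the 81.3 ± 1.87 of Ctrl_NC, whereas the cytosolic sum went from 444 ± 7.84 to 836 ± 21.7.

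GC content of the exons moved with the differences between some groups over all genes, so the fits were repeated with a GC trend removed. For Antisense_NC against Ctrl_NC this left 14 cytosolic members higher and 4 lower, against 32.4% and 32.2% of all genes, and 5 mitochondrial members higher and 4 lower. DARS, for aspartate, turned from 0.13 to -0.20 in that fit, and LARS, for leucine, no longer passed (0.11, adjusted p = 0.0608).

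**Figure D2:**
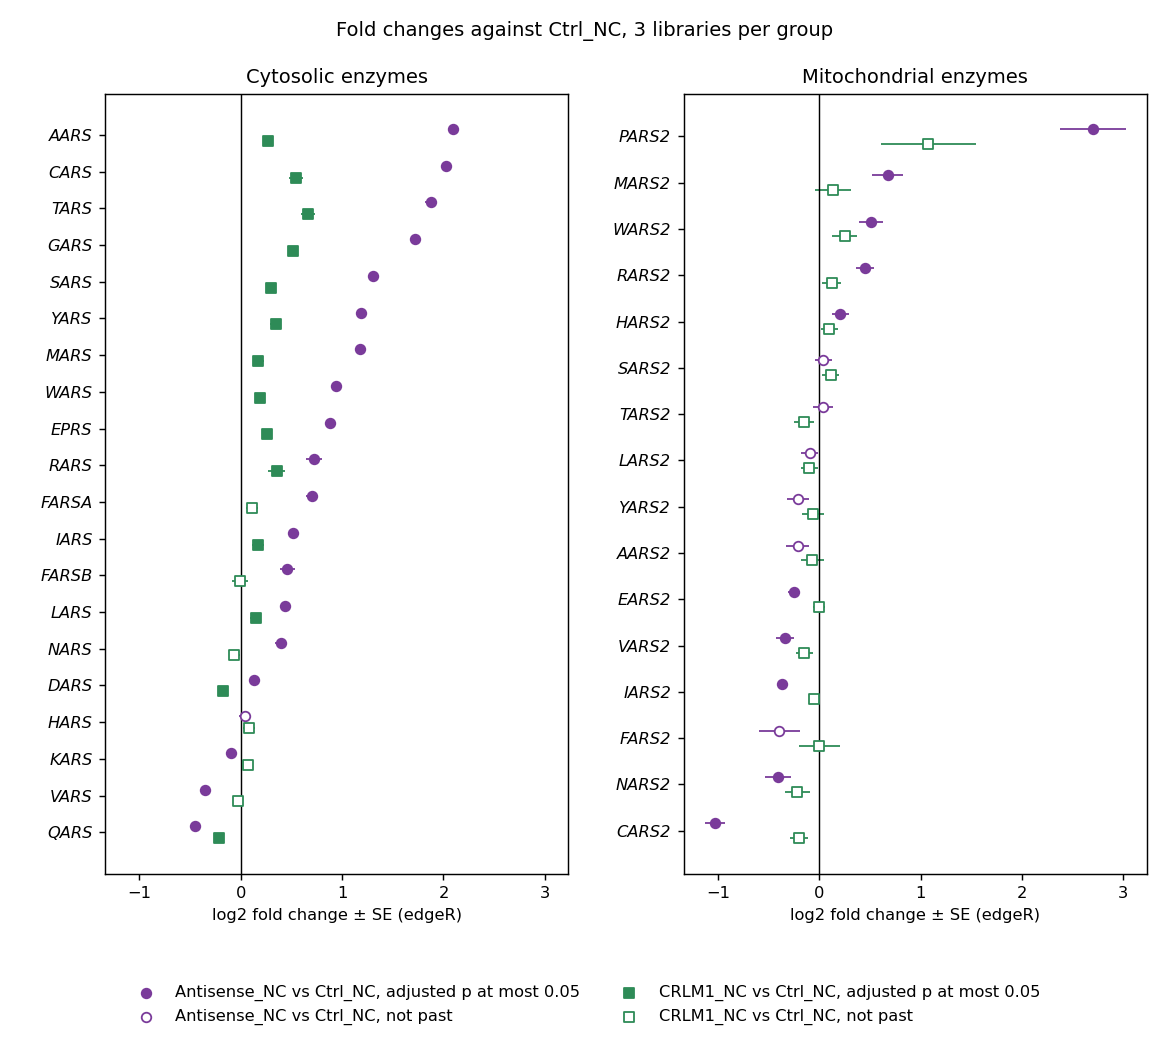
Log2 fold change against Ctrl_NC with its standard error for each of the 36 genes in Antisense_NC and CRLM1_NC, 3 libraries per group; filled points passed an adjusted p of 0.05. Antisense_NC reaches 2.09 for AARS among the cytosolic genes, whereas the largest cytosolic value in CRLM1_NC is 0.66, for TARS.

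CRLM1 itself was compared with the empty vector in the CRLM1_NC and Ctrl_NC groups. Cytosolic synthetases were again mostly higher, by small amounts, with TARS, CARS and GARS leading, and none reached 2-fold. Of the 20 cytosolic genes, 12 rose (60.0%) and 2 fell (10.0%), against 16.9% and 17.4% of all genes. The median log2 difference was 0.17, against 0.01 for all genes. TARS read 62.0, 57.9 and 53.7 CPM in CRLM1_NC, all above the 33.8 to 38.4 CPM of Ctrl_NC (log2 0.66, SE 0.07, edgeR adjusted p = 8.5e-11). CARS read 46.5, 41.6 and 42.9 CPM, also above every control library (0.54, SE 0.07, adjusted p = 3.6e-08). GARS read 120.3, 108 and 115 CPM against 79.3, 77.9 and 80.0 CPM (0.52, SE 0.05, adjusted p = 8.1e-12).

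The members that fell in CRLM1_NC were QARS, at 295, 284 and 281 CPM (fell by 0.21 on the log2 scale, SE 0.03, edgeR adjusted p = 1.1e-06), and DARS, at 93.6, 87.3 and 96.1 CPM against 103, 104 and 102 CPM (fell by 0.18, SE 0.05, adjusted p = 0.002). Both genes had groups that did not overlap. VARS, lower in the antisense cells, did not pass here (-0.02, adjusted p = 0.622). No mitochondrial member passed the edgeR test, and DESeq2 also called 0, although 2 had an unadjusted p under 0.05, without a share of all genes. The smallest of these p-values belonged to PARS2, with 17, 12 and 29 counts (log2 1.08, SE 0.47, adjusted p = 0.0716), and CARS2 (-0.20, SE 0.09, adjusted p = 0.0836). Of the 6 members with TGATGCAA in the promoter, 5 rose, with a median of 0.22, and NARS gave -0.06. In the whole cytosolic list 12 of 20 rose, against 16.9% of all genes. The summed cytosolic FPKM was 500.5 ± 10.6 in CRLM1_NC.

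CRLM1_NC was also set against Antisense_NC. Both groups served in the comparisons with Ctrl_NC, so these values are not independent of those above. Here 16 cytosolic members were lower in CRLM1_NC (80.0%) and 3 higher (15.0%), against 29.5% and 26.9% of all genes, and 6 were at no more than 0.5 of the Antisense_NC level (30.0%, against 3.17% of all genes). These 6 were AARS (-1.82, SE 0.04, edgeR adjusted p = 5.2e-32), CARS (-1.48, SE 0.05, adjusted p = 5.4e-24), TARS (-1.21, SE 0.05, adjusted p = 5.8e-21), GARS, SARS and MARS. The 3 higher in CRLM1_NC were VARS (0.34, SE 0.04, adjusted p = 2.7e-10), QARS (0.24, SE 0.04, adjusted p = 7.6e-07) and KARS (0.17, SE 0.04, adjusted p = 9.2e-04). Among mitochondrial genes 3 were higher, CARS2 (0.83, adjusted p = 5.1e-09), IARS2 and EARS2, and 3 were lower, PARS2 (-1.62, adjusted p = 2.1e-05), MARS2 and RARS2.

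**Figure D3:**
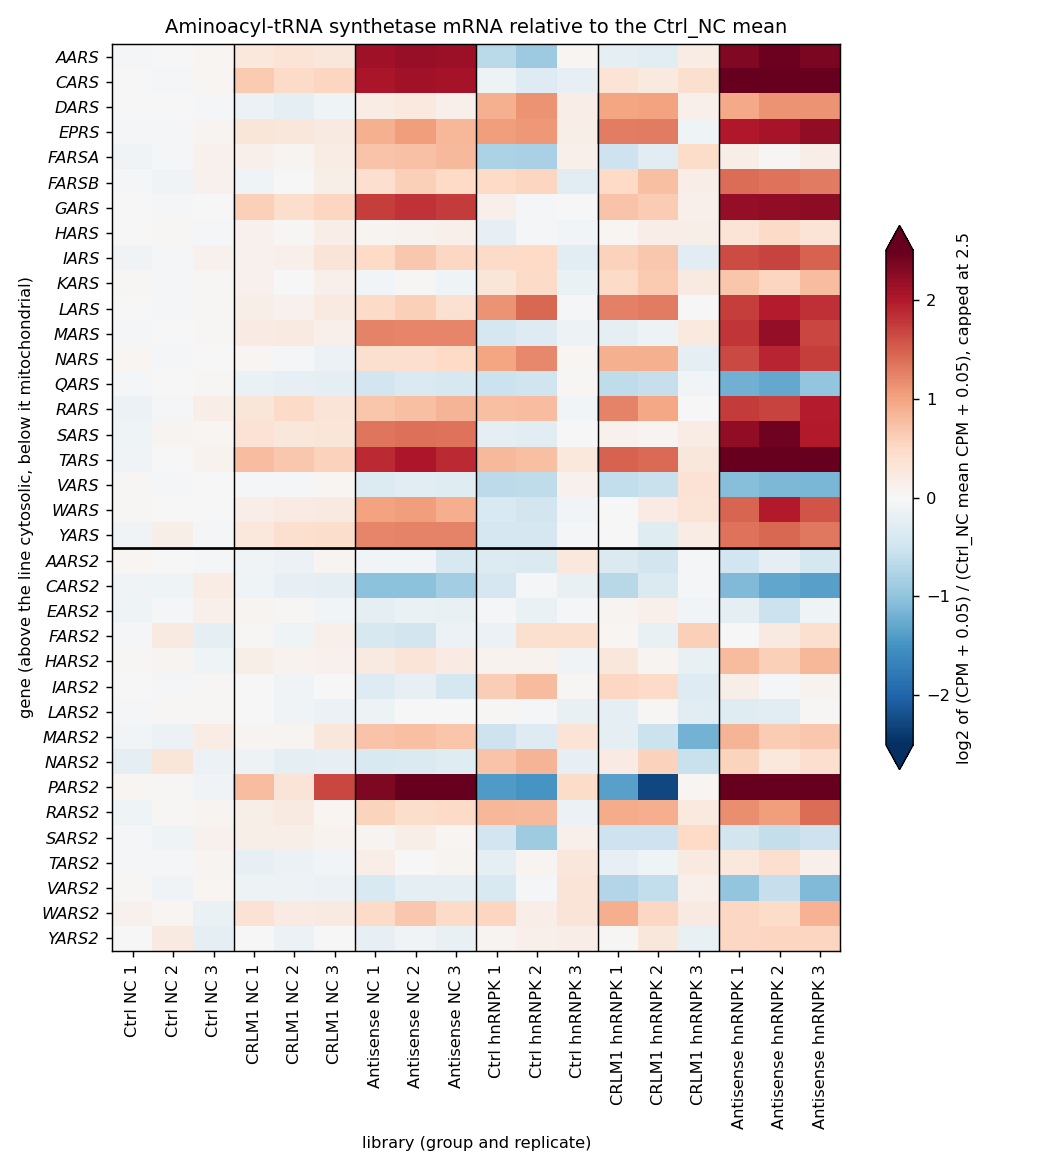
Colour map of the 36 synthetase genes (rows, cytosolic above mitochondrial) in the 18 libraries (columns, by group), as log2 of CPM relative to the Ctrl_NC mean. The antisense columns stand out for most cytosolic rows, and the third Ctrl_hnRNPK and CRLM1_hnRNPK columns look like those of their NC groups.

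The effect of the hnRNPK construct on the empty vector background depended on the third library. With all libraries as labelled, edgeR called 0 of 20 cytosolic and 0 of 15 mitochondrial members in Ctrl_hnRNPK against Ctrl_NC, and 0% of all genes. DESeq2 called 0 members too, and 5 cytosolic and 1 mitochondrial member had an unadjusted p under 0.05. The share of all genes at that unadjusted p is not given here. The members with the smallest p were DARS (0.77, SE 0.24, edgeR adjusted p = 0.32) and EPRS (0.80, SE 0.25, adjusted p = 0.32), the enzyme that charges both glutamate and proline tRNA. EPRS read 92.0, 91.8 and 99.4 CPM in Ctrl_NC and 194, 201 and 104 CPM in Ctrl_hnRNPK. DARS read 103, 104 and 102 CPM against 192, 224 and 116 CPM. In both genes the third hnRNPK library was just above the control libraries and the other two were far above them. PARS2 held 3, 3 and 12 counts and was too low to be tested.

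Without that library, left out for its expression profile, the cytosolic enzymes split by direction. Of 20, 9 were higher (45.0%) and 8 lower (40.0%), against 29.6% and 29.9% of all genes, and the list's median was -0.02. The higher members were LARS (1.31, SE 0.08, edgeR adjusted p = 1.3e-09), NARS (1.13, SE 0.07, adjusted p = 2.0e-09), EPRS (1.09, SE 0.06, adjusted p = 1.0e-09), DARS, FARSB, IARS, KARS, RARS and TARS. The lower members were FARSA (-0.79, SE 0.09, adjusted p = 6.0e-07), AARS (-0.77, SE 0.08, adjusted p = 2.5e-07), VARS (-0.62, SE 0.06, adjusted p = 5.2e-08), MARS, QARS, SARS, WARS and YARS. FARSA and FARSB, the subunits of the one phenylalanyl enzyme, thus went opposite ways. FARSB read 45.1 and 46.5 CPM against 30.2 to 34.7 CPM in Ctrl_NC, and FARSA read 33.8 and 33.3 CPM against 55.4 to 63.4 CPM. Complex members were higher in 6 of 8 cases, and members outside it in 3 of 12 with 6 lower. Among mitochondrial genes IARS2, NARS2, RARS2 and WARS2 were higher, and AARS2 and SARS2 lower.

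The CRLM1 background gave a like pattern under the construct. With all libraries, edgeR called 0 of 36 members in CRLM1_hnRNPK against CRLM1_NC and 0% of all genes. DESeq2 called 0 members, and 5 cytosolic and 3 mitochondrial members had an unadjusted p under 0.05, again without a share of all genes. The smallest p were those of DARS (0.97, SE 0.25, edgeR adjusted p = 0.533) and PARS2 (3, 1 and 10 counts against 17, 12 and 29, adjusted p = 0.533). EPRS read 116, 115 and 111 CPM in CRLM1_NC and 230.4, 233 and 87.4 CPM in CRLM1_hnRNPK, with the third library below the controls. Without that library 10 cytosolic members were higher (50.0%) and 8 lower (40.0%), against 29.5% and 29.1% of all genes, led by DARS (1.20, SE 0.05, adjusted p = 3.2e-16), LARS (1.17, SE 0.06, adjusted p = 1.4e-15) and EPRS (1.07, SE 0.05, adjusted p = 8.8e-16). VARS (-0.54, SE 0.05, adjusted p = 2.9e-10), AARS (-0.49, SE 0.06, adjusted p = 1.5e-08) and FARSA (-0.47, SE 0.08, adjusted p = 7.1e-06) led the lower members. IARS2, NARS2, RARS2 and WARS2 were higher among mitochondrial genes, and CARS2, PARS2, SARS2 and VARS2 lower, where PARS2 rested on 3 and 1 counts.

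In the antisense background the 3 hnRNPK libraries were alike, at correlations of 0.987 to 0.991 for the third library with its own group, and the test used all of them. Cytosolic synthetases rose further above their already high level, led by LARS at 2.55-fold, NARS at 2.5-fold and TARS. In Antisense_hnRNPK against Antisense_NC 16 of 20 cytosolic members rose (80.0%) and 3 fell (15.0%), against 33.4% and 30.5% of all genes, and 6 rose at least 2-fold (30.0%, against 7.28%). The median log2 difference was 0.74 for the cytosolic list, 0.13 for the mitochondrial list and 0.04 for all genes. LARS, for leucine, read 84.9, 91.2 and 78.4 CPM against 202, 235 and 214 CPM (1.35, SE 0.09, edgeR adjusted p = 9.6e-08). NARS, for asparagine, read 89.4, 91.1 and 96.5 CPM against 214, 255 and 225 CPM (1.32, SE 0.09, adjusted p = 9.8e-08). TARS read 132, 147 and 132 CPM against 290.1, 313 and 328 CPM (1.17, SE 0.08, adjusted p = 1.0e-07). No group overlapped in these genes, and EPRS, IARS and RARS also passed 2-fold.

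VARS, QARS and FARSA fell in the antisense cells with the construct. VARS went from 303, 316 and 311 CPM to 184, 175 and 175 CPM (-0.81, SE 0.07, edgeR adjusted p = 5.8e-07), and QARS from 239, 257 and 251 CPM to 143, 135 and 166 CPM (-0.76, SE 0.08, adjusted p = 2.4e-06). FARSA went from 96.7, 97.1 and 103 CPM to 64.7, 60.1 and 66.0 CPM (-0.64, SE 0.07, adjusted p = 4.3e-06). YARS, for tyrosine, did not pass (0.13, adjusted p = 0.143). Mitochondrial members were higher in 6 of 16 cases (37.5%) and lower in 2 (12.5%), against 33.4% and 30.5% of all genes. NARS2 (0.76, SE 0.12, adjusted p = 5.9e-05), RARS2 (0.70, SE 0.10, adjusted p = 2.8e-05) and YARS2 (0.68, SE 0.10, adjusted p = 3.7e-05) led the higher ones, and SARS2 (-0.62, SE 0.10, adjusted p = 6.9e-05) and VARS2 (-0.58, SE 0.14, adjusted p = 0.00236) were the lower ones. SARS2 and VARS2 share 48.2% and 63.0% of their exon bases with other gene models on the same strand, so their counts are uncertain.

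The differences under the construct moved with GC content of the longest transcript, among the synthetases as among all genes. In Ctrl_hnRNPK against Ctrl_NC, with all libraries, Spearman's rho between log2 difference and GC was -0.88 over 20 cytosolic genes, -0.71 over 15 mitochondrial genes and -0.71 over all genes with a GC value. The corresponding values were -0.79, -0.69 and -0.63 in the CRLM1 background and -0.71, -0.69 and -0.71 in the antisense background. Genes of 1 library share its depth and base composition and are not independent replicates. Without the third library, the 9 cytosolic genes that rose in the Ctrl background had 37.9% to 46.6% GC and the 8 that fell had 51.7% to 61.7%, with no overlap. FARSB has 40.0% GC and FARSA 60.3%. For Antisense_NC against Ctrl_NC the rho was 0.04 over the cytosolic list and -0.3 over all genes. The part of base composition in these results was not tested beyond the fit with the trend removed.

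With the GC trend removed, the rise of the cytosolic list in the antisense background under the construct was smaller. In that fit 16 of 20 were higher and 1 lower, against 18.6% and 20.6% of all genes, with YARS among the 16 in place of GARS and a median of 0.51, and 1 member rather than 6 rose at least 2-fold (against 2.9% of all genes). That member was SARS, for serine, at 1.11 (SE 0.10, edgeR adjusted p = 1.2e-05). QARS remained lower (-0.38, adjusted p = 0.0046), whereas FARSA (-0.05, adjusted p = 0.628) and VARS (-0.18, adjusted p = 0.0698) no longer passed. GARS went from 0.44 to -0.19 and did not pass (adjusted p = 0.0552). SARS2 and VARS2 came to 0.00 and 0.01. Of the mitochondrial genes 5 were then higher and WARS2 was lower.

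**Figure D4:**
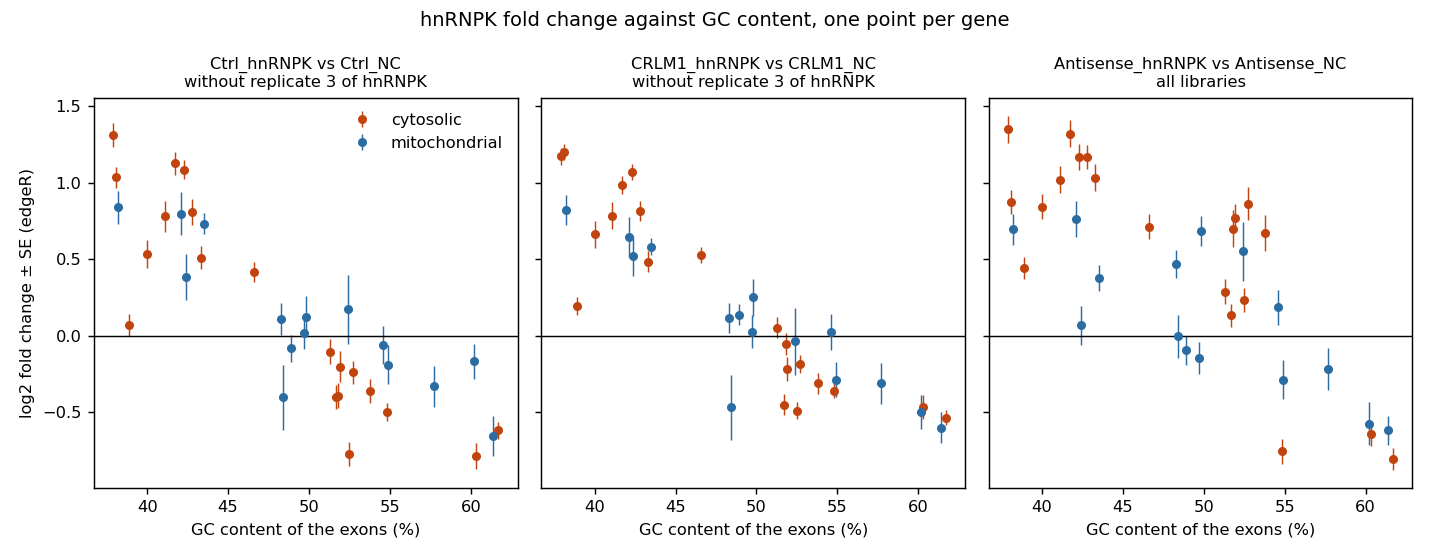
Log2 fold change under the hnRNPK construct against GC content (percent) for cytosolic and mitochondrial synthetases in the 3 backgrounds. GC content is that of the longest transcript of each gene, though the axis names exons. The third hnRNPK library is left out for Ctrl and CRLM1, and all libraries are used for Antisense. PARS2 is not plotted. The points fall from low to high GC in each background, with exceptions such as GARS in the antisense cells, and with rho of -0.87, -0.88 and -0.71 over the cytosolic genes.

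Between backgrounds under the construct, Antisense_hnRNPK exceeded Ctrl_hnRNPK for most cytosolic enzymes. With all libraries 14 of 20 were higher (70.0%) and 2 lower (10.0%), against 20.9% and 19.9% of all genes, and 12 were at least 2-fold higher (60.0%, against 11.8%), with a median of 1.23. CARS read 213, 235 and 194 CPM against 27.1, 23.6 and 25.6 CPM (3.03, SE 0.21, edgeR adjusted p = 4.5e-06). AARS read 555, 609.6 and 569 CPM against 69.1, 58.8 and 115 CPM (2.80, SE 0.26, adjusted p = 2.4e-05), and TARS 290.1, 313 and 328 CPM against 63.8, 61.0 and 43.1 CPM (2.42, SE 0.23, adjusted p = 2.4e-05). Each antisense library was above each library of the empty vector in these genes. QARS (-0.88, SE 0.22, adjusted p = 0.00669) and VARS (-0.80, SE 0.23, adjusted p = 0.0156) were lower.

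Mitochondrial members were higher in 3 of 16 cases and lower in 2 in that comparison, against 20.9% and 19.9% of all genes. PARS2 held 109, 148 and 74 counts against 3, 3 and 12 (edgeR adjusted p = 1.9e-04), MARS2 was higher by 0.81 (adjusted p = 0.0264) and HARS2 by 0.66 (adjusted p = 0.0164). CARS2 (-1.10, adjusted p = 0.00147) and VARS2 (-0.91, adjusted p = 0.00956) were lower. Without the third Ctrl_hnRNPK library 16 cytosolic members were higher and 2 lower, against 29.2% and 25.5% of all genes, and 5 mitochondrial members were higher and 4 lower. The third Antisense_hnRNPK library did not stand apart, and leaving it out as well gave the same counts against 28.6% and 26.1% of all genes.

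**Figure D5:**
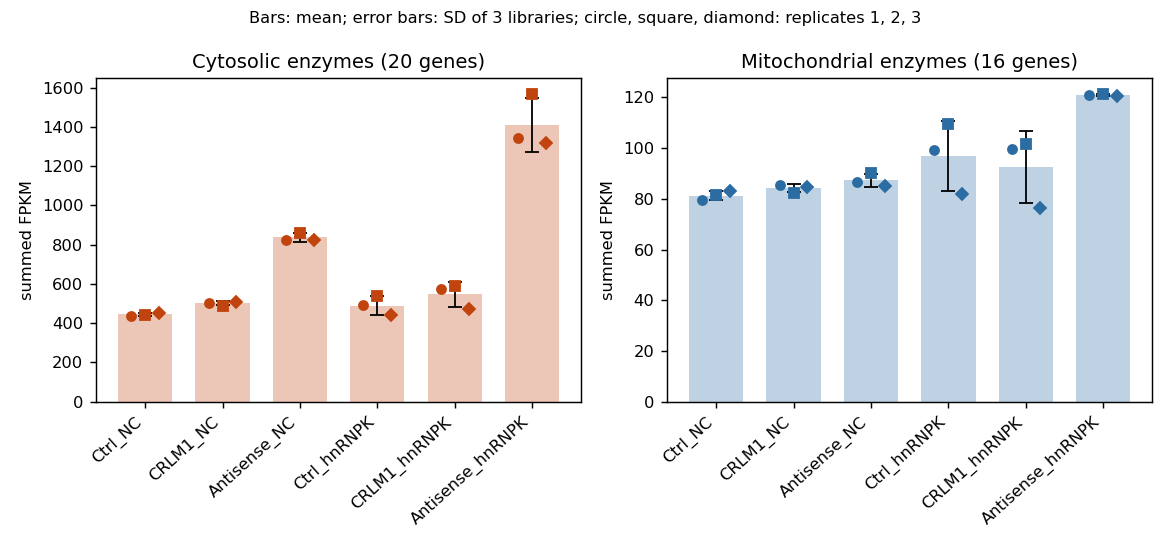
Summed FPKM of the 20 cytosolic and of the 16 mitochondrial synthetases in each library, by group; bars are means of 3 libraries, error bars are SD and points are libraries. The cytosolic sum is 444 in Ctrl_NC, 836 in Antisense_NC and 1409.7 in Antisense_hnRNPK, while the mitochondrial sum runs from 81.3 to 121. FPKM is not TMM-scaled.

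In sums, the cytosolic list reached 1409.7 ± 138 FPKM in Antisense_hnRNPK and 489.5 ± 48.6 FPKM in Ctrl_hnRNPK. The mitochondrial list reached 121 ± 0.391 and 96.9 ± 13.9 FPKM. These sums are not TMM-scaled, and TMM factors were 1.096 to 1.262 in Antisense_hnRNPK, 0.983 to 1.005 in Antisense_NC and 0.895 to 1.071 in Ctrl_hnRNPK. AARS, for example, read 112 FPKM in Antisense_NC and 157 FPKM in Antisense_hnRNPK, but 491 and 578 CPM. Ratios within a library are free of that scaling. The ratio of the sums was 11.6 ± 1.11 in Antisense_hnRNPK, 9.57 ± 0.0923 in Antisense_NC and 4.91 to 6.18 in the libraries of the other groups.

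CRLM1_hnRNPK and Ctrl_hnRNPK were harder to separate. With all libraries edgeR called 0 of 20 cytosolic and 0 of 15 mitochondrial members (0.0137% of all genes higher, 0% lower). DESeq2 called 0, and 1 cytosolic member had an unadjusted p under 0.05, again without a share of all genes. CARS (0.56, SE 0.23, edgeR adjusted p = 1) and WARS, for tryptophan (0.48, SE 0.24, adjusted p = 1), had the smallest p. CARS read 37.4, 35.2 and 39.4 CPM against 27.1, 23.6 and 25.6 CPM, and the groups did not overlap. Samples with the same replicate number deviated together in this pair of groups, at correlations of 0.49, 0.381 and 0.662. Both groups hold a replicate 3 library that correlated more with its NC group than with its own. A block on replicate number also takes up what these libraries share. Whether samples were paired was therefore not tested apart from them. The correlations came from the same expression values as the tests, so p-values with the block may be too small. With the replicate number as a block, 6 cytosolic members were higher (3.82% of all genes), namely CARS (0.56, adjusted p = 0.0111), WARS, GARS, TARS, AARS and FARSA. Without the third libraries 7 were higher, those 6 and SARS, against 8.88% of all genes, and VARS2 alone was lower (-0.50, adjusted p = 0.0231), against 7.65%.

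Whether the construct acted differently by background was tested as an interaction. For the antisense background minus the empty vector, edgeR called 0 members and 0% of all genes with all libraries. There, 13 cytosolic and 3 mitochondrial members had an unadjusted p under 0.05, and DESeq2 called 4 cytosolic members. The shares of all genes by unadjusted p or DESeq2 are not given here, so these counts cannot be called particular to the members. CARS (0.98, SE 0.17, edgeR adjusted p = 0.0932) and SARS (1.02, SE 0.20, adjusted p = 0.1) were nearest. Without the third Ctrl_hnRNPK library 8 cytosolic members had the higher effect in the antisense cells (40.0%) and 0 the lower, against 2.85% and 3.77% of all genes. SARS (1.08, SE 0.14, adjusted p = 2.8e-04), WARS (1.07, SE 0.15, adjusted p = 7.6e-04) and MARS (1.01, SE 0.15, adjusted p = 0.00109) led, followed by AARS, CARS, YARS, IARS and GARS, and PARS2 was the mitochondrial member that passed. Leaving out the third Antisense_hnRNPK library as well gave 10 higher, with HARS and TARS added, and 1 lower (QARS), against 6.58% and 9.47% of all genes. SARS read 78.9, 89.4 and 88.4 CPM in Ctrl_NC and 72.4, 70.4 and 86.4 CPM in Ctrl_hnRNPK, but 217, 221 and 219 CPM in Antisense_NC and 396, 463 and 340.2 CPM in Antisense_hnRNPK. LARS, NARS, EPRS and DARS, which rose in both backgrounds without the third Ctrl_hnRNPK library, did not pass the interaction in that setting, with differences of 0.02, 0.18, 0.07 and -0.18. For the CRLM1 background minus the empty vector, edgeR called 0 members and 0% of all genes, MARS2 (-0.58, SE 0.39) and WARS (0.31, SE 0.21) were nearest, and leaving out the third libraries also gave 0.

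Other genes of the pathway were taken as lists, which were written with earlier results of these data known. Their counts are therefore descriptive and not independent of these data. Of 13 genes of the ATF4 pathway, 12 were higher in Antisense_NC than in Ctrl_NC and 0 lower, against 34.4% and 32.2% of all genes, with a median log2 difference of 1.82. CHAC1, a glutathione-degrading enzyme, read 1.54, 0.640 and 1.38 CPM against 52.2, 49.9 and 56.0 CPM. ASNS, asparagine synthetase, read 41.2, 41.5 and 39.9 CPM against 204, 208 and 208 CPM (2.29, SE 0.05, edgeR adjusted p = 4.9e-32). ATF4 itself read 223, 226 and 213 CPM against 378, 403 and 395 CPM (0.78, SE 0.04, adjusted p = 1.3e-20), and PSPH, of serine synthesis, did not pass (-0.01, adjusted p = 0.927). In CRLM1_NC 7 of the 13 were higher and 2 lower than in Ctrl_NC, against 16.9% and 17.4% of all genes, with a median of 0.10. In Antisense_hnRNPK 8 were higher and 1 lower than in Antisense_NC, against 33.4% and 30.5% of all genes, with a median of 0.35. With the GC trend removed these became 13 higher and 0 lower, against 18.6% and 20.6%, with a median of 0.63.

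The cytosolic elongation factors, which carry charged tRNA to the ribosome and move it along the messenger, were lower in Antisense_NC. All 5 listed fell against Ctrl_NC, where 32.2% of all genes fell, with a median of -0.61, and EEF1A1 read 8619, 8409 and 8428 CPM in Ctrl_NC against 5552, 5975 and 5684 CPM in Antisense_NC. In CRLM1_NC 4 of the 5 were lower, against 17.4% of all genes. In Antisense_hnRNPK against Antisense_NC 2 were higher and 2 lower, against 33.4% and 30.5% of all genes. With the GC trend removed 2 were higher and 1 lower in that comparison, against 18.6% and 20.6%. Of the complex scaffold, AIMP1 (0.48, SE 0.08, edgeR adjusted p = 1.1e-06) and AIMP2 were higher in Antisense_NC and EEF1E1 did not pass, and with the GC trend removed 1 of the 3 passed and the median went from 0.48 to 0.15. The 9 mitochondrial translation partners gave 2 higher (TSFM and TRMU) and 2 lower (GATB and TUFM) in Antisense_NC, smaller shares than the 34.4% and 32.2% of all genes. Of 7 eIF2 kinases, their activator and phosphatase subunits, 3 were higher and 2 lower in Antisense_NC, against 34.4% and 32.2% of all genes, with a median of 0.06, and with the GC trend removed 2 were higher and 2 lower. EIF2AK3, the kinase of endoplasmic reticulum stress, read 9.59, 10.5 and 10.6 CPM against 21.5, 22.0 and 18.2 CPM (0.96, SE 0.11, adjusted p = 4.3e-10). EIF2AK4, the kinase that senses uncharged tRNA, did not pass (-0.06, adjusted p = 0.473). The phosphatase subunit PPP1R15A was lower (-0.76, SE 0.03, adjusted p = 1.9e-21) and PPP1R15B higher (0.59, SE 0.04, adjusted p = 1.2e-15).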

How the data were processed

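Libraries were made with the KAPA RNA HyperPrep kit and sequenced as paired ends. Per the study's methods, reads were trimmed (FASTX-Toolkit) and placed by TopHat2, with up to 4 mismatches, on GRCh38 with Gencode v23. The counts the authors deposited are uniquely mapped reads per gene, without normalization, and the deposited FPKM values are those divided by exon length and mapped fragments, rounded to 2 decimals. The strand used in counting is not stated. Only unique reads were counted, which lowers genes with near-identical copies.

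Counts were fitted with edgeR 4.0.16 in R 4.3.3 (TMM, filterByExpr, robust quasi-likelihood) on the libraries of the 2 groups, or of the 4 groups for interactions, and p was adjusted over all genes tested by the Benjamini-Hochberg procedure. A gene passed at an adjusted p of at most 0.05. Shares of all genes are given for the edgeR adjusted p only, not for unadjusted p or for DESeq2. Alternatives were RLE size factors, DESeq2 1.42.0, no filter on low counts, a replicate block and leaving out single libraries. Further alternatives were limma 3.58.1 on log2(FPKM + 1) and removal of a lowess trend (span 0.3) on GC of the longest transcript. Scripts were tested on simulated counts. Same-numbered samples deviated together, at correlations of 0.381 to 0.662, only between CRLM1_hnRNPK and Ctrl_hnRNPK (all other pairs of groups, -0.072 to 0.099). Both of these groups hold a replicate 3 library that the study left out, and a pairing of samples was not tested apart from those libraries. Coordinates, exon overlaps and GC came from Gencode 44, in which 18 member symbols differ, and promoters from RefSeq. At most 3 highest and 3 lowest members past the threshold per list, or the 2 with the smallest p where none passed, were to be given with full statistics. The other members are described by counts and chosen examples. Members and lists were chosen with earlier results of these data known. P-values measure the spread between libraries, and 3 per group limits their precision.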

Additional observations from a re-analysis of the deposited data

How the results depend on the processing

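Of 775 values recomputed under the alternatives, for the members given with full statistics by the naming rule, 704 kept their direction and their side of the threshold, 37 no longer passed, 31 newly passed and 3 turned. Those that turned were KARS in Antisense_NC against Ctrl_NC with limma on FPKM (0.13), and SARS2 (0.001) and VARS2 (0.009) in Antisense_hnRNPK against Antisense_NC with the GC trend removed. Outside that set, DARS (-0.20) in Antisense_NC against Ctrl_NC and GARS (-0.19) in Antisense_hnRNPK against Antisense_NC also turned with the GC trend removed. Counts of cytosolic members past the threshold moved by over 1.5 times in Ctrl_hnRNPK against Ctrl_NC without the filter (4), in CRLM1_hnRNPK against CRLM1_NC with the GC trend removed (1), in CRLM1_hnRNPK against Ctrl_hnRNPK with the replicate block (6) and in the interaction of Antisense minus Ctrl without the filter (4), with the GC trend removed (6), with DESeq2 (4) and with limma (4). For mitochondrial members they moved in CRLM1_NC against Ctrl_NC with limma (1) and in Antisense_hnRNPK against Ctrl_hnRNPK with the GC trend removed (9). The causes were not tested. Among these settings a share of all genes is given only for the replicate block (3.82% higher). The replicate block moved no other count by that much. Leaving out single libraries gave 0 to 17 cytosolic and 0 to 6 mitochondrial members in Ctrl_hnRNPK against Ctrl_NC, and 0 to 18 and 0 to 8 in CRLM1_hnRNPK against CRLM1_NC, the upper ends without replicate 3 of the hnRNPK group. At those upper ends 29.6% of all genes were higher and 29.9% lower in the Ctrl background. In the CRLM1 background the shares were 29.5% and 29.1%. With all libraries both comparisons had 0% of all genes. In CRLM1_hnRNPK against Ctrl_hnRNPK each single omission gave 0 of either list, and leaving out replicate 3 of both groups together gave 7 cytosolic and 1 mitochondrial member (0 to 7 and 0 to 1 in all). Without both of these libraries, 8.88% of all genes were higher and 7.65% lower. Single omissions gave 2 to 9 mitochondrial members in Antisense_hnRNPK against Ctrl_hnRNPK (9 without Ctrl_hnRNPK replicate 3, 2 without Antisense_hnRNPK replicate 1 or 3) and 0 to 1 in CRLM1_NC against Ctrl_NC (1 without CRLM1_NC replicate 2). In Antisense_hnRNPK against Ctrl_hnRNPK without Ctrl_hnRNPK replicate 3, 29.2% of all genes were higher and 25.5% lower. For the interaction of Antisense minus Ctrl single omissions gave 0 to 8 cytosolic members (8 without Ctrl_hnRNPK replicate 3, 2 without Ctrl_hnRNPK replicate 2 or Antisense_hnRNPK replicate 3) and 0 to 1 mitochondrial members, and leaving out replicate 3 of both hnRNPK groups gave 11 and 3 (0 to 11 and 0 to 3 in all). The shares of all genes were 2.85% higher and 3.77% lower without Ctrl_hnRNPK replicate 3, and 6.58% and 9.47% without both. The ranges for the cytosolic list were 12 to 15 in CRLM1_NC against Ctrl_NC, 18 to 19 in Antisense_NC against Ctrl_NC and 18 to 19 in Antisense_hnRNPK against Antisense_NC. With all libraries, the shares of all genes higher and lower there were 16.9% and 17.4%, 34.4% and 32.2%, and 33.4% and 30.5%, in that order. Depth limited PARS2, whose counts ran down to 1.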
